A study of Mus musculus with 6 samples.

Results

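The 2 arrays of CD24+ CD29-high mammary cells, the basal cell gate that the labels call MaSC (mammary stem cells), were compared with the 4 arrays of F4/80+ macrophages of the mammary gland. The members were chosen by the sort given in the labels, and together they are all 6 samples of the study, which asked how the Notch ligand Dll1 links mammary stem cells and macrophages. The basal cells came from virgin females of the strain C57/B6:Dll1-mCherry, a reporter of Dll1, and were sorted as an mCherry+ (Dll1-high) and an mCherry- (Dll1-low) fraction with 1 array each. They are therefore 2 fractions of a cell type and not repeats of 1 state. The macrophages came from virgin females of the strain C57/B6:cKO-Dll1, a conditional knockout of Dll1 (KO, 2 arrays), and from their wild type littermates of the strain C57/B6 (WT, 2 arrays). All glands were dissociated mechanically and enzymatically before sorting, and total RNA was taken. The labels do not name the Cre driver, the cells or exons that lose Dll1, the ages, or whether replicates were separate animals. The p-values below thus measure only the spread between these samples, which may be technical. Both basal arrays lay on 1 slide and the 4 macrophage arrays on another, with separate scans and a later release of the scanner software for the macrophages. Cell type, reporter strain, slide and scan cannot be told apart in any difference reported here.

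Basal cells form the outer layer of the mammary epithelium. Most are myoepithelial cells, which contract around the alveoli and ducts with smooth muscle proteins, hold to the basement membrane through hemidesmosomes and express the keratins Krt5 and Krt14. The layer also holds cells that can regrow a gland on transplantation. Macrophages of the gland depend on Csf1r, the receptor of the growth factors Csf1 and Il34, and they engulf dying cells, present antigen and secrete chemokines, cytokines and complement. Notch ligands such as Dll1 act on receptors of a touching cell, while Wnt proteins and chemokines act over short distances.

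Stretches upstream of transcription start sites are shown for genes called in the comparison, because their sequence holds a motif known for the cell type in which the gene was higher. They are the 250 bases before the start of the gene, read 5′ to 3′ on the strand of the gene, from RefSeq on the build GRCm38.p6, and capitals mark the motif on either strand. Acta1, higher in basal cells, lies on the minus strand (chr8:123894776-123895025), and its capitals mark a CArG box, the element bound by serum response factor in muscle genes. The other 4 genes were higher in macrophages, and their capitals mark GAGGAAGT or its reverse complement, an element of the kind bound by the myeloid factor PU.1. Samsn1 (chr16:75909267-75909516) and C1qc (chr4:136892915-136893164) lie on the minus strand, and Vav1 (chr17:57278850-57279099) and Pf4 (chr5:90772185-90772434) on the plus strand.
Acta1: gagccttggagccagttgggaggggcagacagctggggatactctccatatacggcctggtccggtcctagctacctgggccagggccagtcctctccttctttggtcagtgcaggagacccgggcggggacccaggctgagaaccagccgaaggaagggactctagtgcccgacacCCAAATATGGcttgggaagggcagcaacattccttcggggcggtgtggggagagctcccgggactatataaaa
Samsn1: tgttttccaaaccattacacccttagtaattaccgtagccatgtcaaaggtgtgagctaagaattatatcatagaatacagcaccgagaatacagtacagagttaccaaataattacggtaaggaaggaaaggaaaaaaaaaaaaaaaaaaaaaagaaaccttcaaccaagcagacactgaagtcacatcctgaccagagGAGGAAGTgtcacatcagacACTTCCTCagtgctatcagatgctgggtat
Vav1: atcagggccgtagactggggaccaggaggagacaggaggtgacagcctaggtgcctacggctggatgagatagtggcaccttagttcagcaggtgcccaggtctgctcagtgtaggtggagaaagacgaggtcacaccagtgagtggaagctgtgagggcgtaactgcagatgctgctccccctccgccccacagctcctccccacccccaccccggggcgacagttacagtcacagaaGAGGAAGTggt
Pf4: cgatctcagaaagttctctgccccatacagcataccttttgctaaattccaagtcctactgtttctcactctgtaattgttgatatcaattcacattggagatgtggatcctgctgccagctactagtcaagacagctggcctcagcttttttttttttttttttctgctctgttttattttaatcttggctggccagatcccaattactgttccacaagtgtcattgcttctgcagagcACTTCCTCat
C1qc: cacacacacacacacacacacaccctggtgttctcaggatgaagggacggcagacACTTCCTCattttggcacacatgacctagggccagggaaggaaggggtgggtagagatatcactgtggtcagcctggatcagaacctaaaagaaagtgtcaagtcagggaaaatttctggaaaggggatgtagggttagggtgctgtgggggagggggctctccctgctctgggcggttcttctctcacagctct

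GAGGAAGT was searched on both strands in windows of 250 bases before and 50 after each start, and 15908 of the 31243 genes tested had such a window. It was in 604 of all 19596 windows (3.08%), in 55 of 585 windows (9.4%) of genes called at least 4-fold higher in macrophages, and in 5 of 424 (1.18%) of those called at least 4-fold higher in basal cells. The CArG box was in 282 windows in all (1.44%), in 17 of the 424 basal windows (4.01%) and in 5 of the 585 macrophage windows (0.855%). The AP-1 site TGAGTCA was in 4.56% of all windows, 6.37% of the basal and 4.27% of the macrophage windows. Windows were matched for 447 of the 676 macrophage genes and 312 of the 453 basal genes. No motif searched holds another. Relative to the start, the first base of the motif lay at -73 in Acta1, -50 and -30 in Samsn1, -11 in Vav1, -10 in Pf4 and -195 in C1qc. Among 16 windows of the smooth muscle contractile genes, 1 held a CArG box. These are matches of letters and say nothing of binding.

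Each value below is a log2 ratio of the sample (Cy5) over a universal mouse reference RNA (Cy3), a mix of 11 mouse cell lines. A difference is the basal mean minus the macrophage mean, so that a positive one is higher in basal cells. A gene was called where the adjusted p of limma's fit over all 31243 genes was under 0.05. Values on the macrophage arrays are given in the order KO replicates 1 and 2, then WT replicates 1 and 2. Cy5 was well above background for 86% and 88.1% of spots on the basal arrays and for 47.4% to 71.9% on the macrophage arrays. A median Cy5 signal of 330 and 352.5 over a background of 75 and 76 on the former stood against 98 to 155.5 over 64 to 68 on the latter. The macrophage arrays were not alike. KO replicate 2 and WT replicate 2, in the second row of their slide, had 0.736% of genes at least 2-fold apart (r = 0.956 over genes, which are not independent replicates). WT replicates 1 and 2 had 26.6% apart (r = 0.434), more than any basal array against any macrophage array (17.8% to 25.7%). The 2 basal arrays had 0.195% of genes at least 2-fold apart (r = 0.971).

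Of 31243 genes tested, 2873 (9.20%) were called: 1311 (4.20%) higher in basal cells and 1562 (5.0%) higher in macrophages. Both basal arrays lay above all 4 macrophage arrays for 4931 of 30933 genes with a value on every array (15.9%), and all 4 macrophage arrays lay above both basal arrays for 5945 (19.2%). Genes apart in this way and at least 2-fold different numbered 1728 (5.59%) on the basal side and 2428 (7.85%) on the macrophage side, and those at least 4-fold different 537 (1.74%) on the basal side and 889 (2.87%) on the macrophage side. Among called genes, 453 were at least 4-fold and 65 at least 16-fold higher in basal cells, against 676 and 154 in macrophages. The filter on dim probes, Cy5 well above background on 2 or more of the 6 arrays, let 2757 genes in through the basal arrays alone, of which 115 were called higher there, and 96 through macrophage arrays alone, of which 5 were called. Such genes could enter only if high on that side. They include Lama1, Lgr4, Lgr5 and Fzd3 on the basal side and Ccr2 on the other, and 27 and 11 of the 795 list members tested. The smallest called difference was 0.61, and the median difference of all genes was -0.04. In bulk RNA, fewer cells of a type and less RNA per cell cannot be told apart. The counts hung on single arrays. They were 159 basal and 202 macrophage genes without the Dll1-high array and 224 and 274 without the Dll1-low array. Leaving out KO replicate 1 gave 1274 and 1453, KO replicate 2 gave 648 and 856, WT replicate 1 gave 2903 and 3669, and WT replicate 2 gave 743 and 886. Leaving out a basal array leaves 1, whose spread is then assumed to be that of the macrophage arrays. Against the first row of the macrophage slide alone (both replicates 1) the counts were 489 and 493, and against the second row alone 8129 and 7030. With median centring in place of loess 92.1% of calls were basal, against 45.6% in the fit reported, and the median of all genes moved to 0.19.

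**Figure D1:**
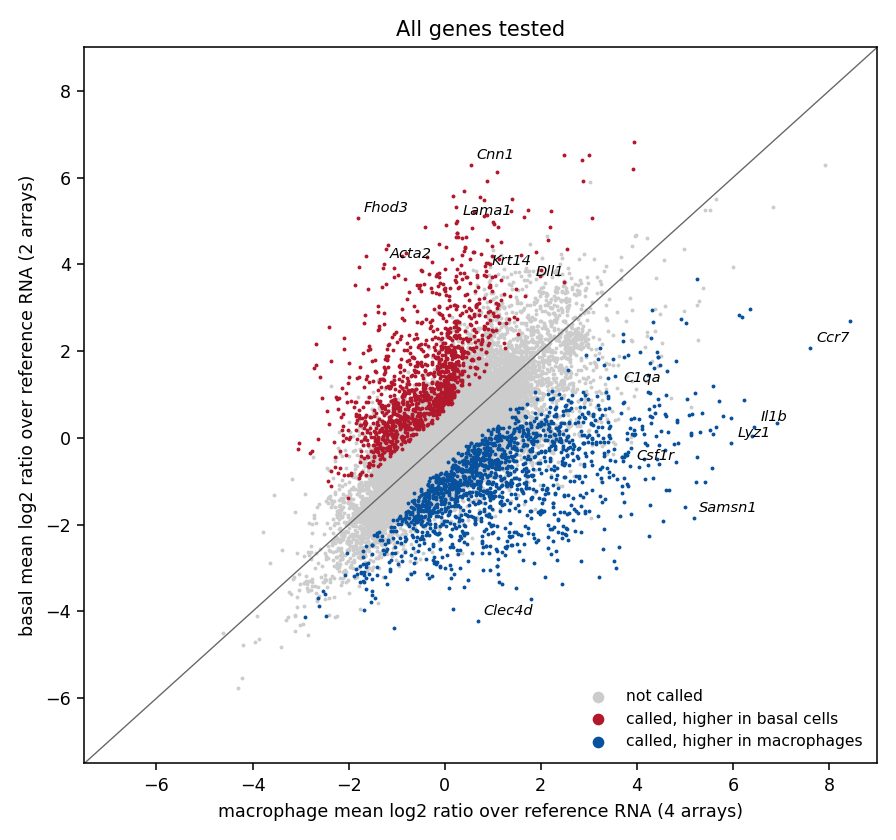
Mean log2 ratio over the reference RNA of each gene tested, on the 4 macrophage arrays (x axis) and the 2 basal arrays (y axis); the line marks equal means. The 1311 red genes above the line were called higher in basal cells and the 1562 blue genes below it higher in macrophages, with Fhod3 and Samsn1 at the ends.

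Of the 199 genes followed through every alternative, 162 were called and 62 kept the call with any 1 array left out. Every other called gene lost it without the Dll1-high array, except Mrtfa, which lost it without the Dll1-low array alone. The paragraphs below name these genes group by group, with the highest limma adjusted p over the 6 fits that leave out 1 array. Other settings ended calls too. With 4 groups of sorted fraction and genotype, where each basal fraction stands alone, 32 of the 162 were kept, with median centring in place of loess 77, and with scaling between arrays or limma's treat at a difference of 1 104 each. It was 128 with the log ratios of the scanner, 129 in the authors' deposited values and 138 with Cy5 alone. Not every gene was tested under every setting. With Cy5 well above background on all 6 arrays 146 of the 162 had a value. With the reference channel under 1 (log2) apart between the slides 130 had one. The calls lost under no setting that tested the gene were 25. On the basal side these were Fhod3, Actg2, Cnn1, Acta1, Krt15, Krt23, Lamb3, Lama1, Perp, Dsp, Irx4, Klf5, Wif1, Dkk3 and Chadl. On the macrophage side they were Samsn1, Myo1g, Lilrb4a, Rgs1, Gpr132, Il1b, Selplg, Ccl9, Ccr7 and Ear2. With 4 groups Lgr5, Adam8, Cfp, Ly86, Unc93b1, Irf8 and Ncf4 also kept the call, and every other gene lost it. Median centring ended 78 calls in macrophages and 7 in basal cells. Of the macrophage genes it left Samsn1, Myo1g, Sirpb1b, Lilrb4a, Rgs1, Cd300c2, Gpr132, Il1b, Selplg, Cd74, Cd40, Cxcl2, Ccl9, Ccr7, Ccr2, Havcr2, S100a9, Ear2, Ear1, Cd209a and Itgax, and the basal genes lost were C1s1, Myd88, Runx1, Pdgfa, Pdgfc, Kremen1 and Mfge8. Of the 62 genes that held with any array left out, scaling ended the calls of Retnla, Tlr13, Ctsh and Cd209a, the scanner's log ratios and the authors' table those of Lgr5 and Cd209a, and a robust fit that of Retnla.

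The markers of both sorts separated the arrays. Krt5, a keratin of the basal layer, read 3.70 and 3.75 in the basal cells (Dll1-high first, here and below) and 0.94, 1.10, 1.12 and 1.03 in the macrophages (difference 2.68, SE 0.14, adjusted p 7.55e-04). Its partner Krt14 read 3.84 and 3.87 against 1.60, 0.64, 0.76 and 0.45 (2.99, SE 0.34, adjusted p 0.0059). Acta2, smooth muscle actin, read 4.20 and 3.81 against -1.70, -1.71, 0.30 and -1.92 (5.26, SE 0.66, adjusted p 0.0082). All 3 were on one side without overlap, and WT replicate 1 was the highest macrophage array for Acta2. Csf1r read -0.82 and -0.47 in the basal cells and 4.31, 4.31, 2.80 and 4.02 in the macrophages (-4.51, SE 0.47, adjusted p 0.00444). C1qa, a chain of complement C1q, read 1.29 and 1.01 against 4.19, 4.55, 1.43 and 4.18. Its arrays did not overlap, but with WT replicate 1 close to the basal cells it was not called (-2.44, SE 0.91, adjusted p 0.186). Of the genes behind the sort, Adgre1, which encodes F4/80, read -2.56 and -2.46 in the basal cells and 4.15, 4.56, 1.85 and 3.99 in the macrophages (-6.15, SE 0.76, adjusted p 0.00767; -2.55 for a second probe). Itgb1, the gene of CD29 (0.69, SE 0.26, adjusted p 0.186), and Cd24a, the gene of CD24 (0.75, SE 0.21, adjusted p 0.0911), lay higher on both basal arrays and were not called. Without a basal array, Krt14 (highest adjusted p 0.087), Acta2 (0.112), Csf1r (0.0783) and Adgre1 (0.104) were no longer called. Other probes of Csf1r differed by -1.71 and -0.32.

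**Figure D2:**
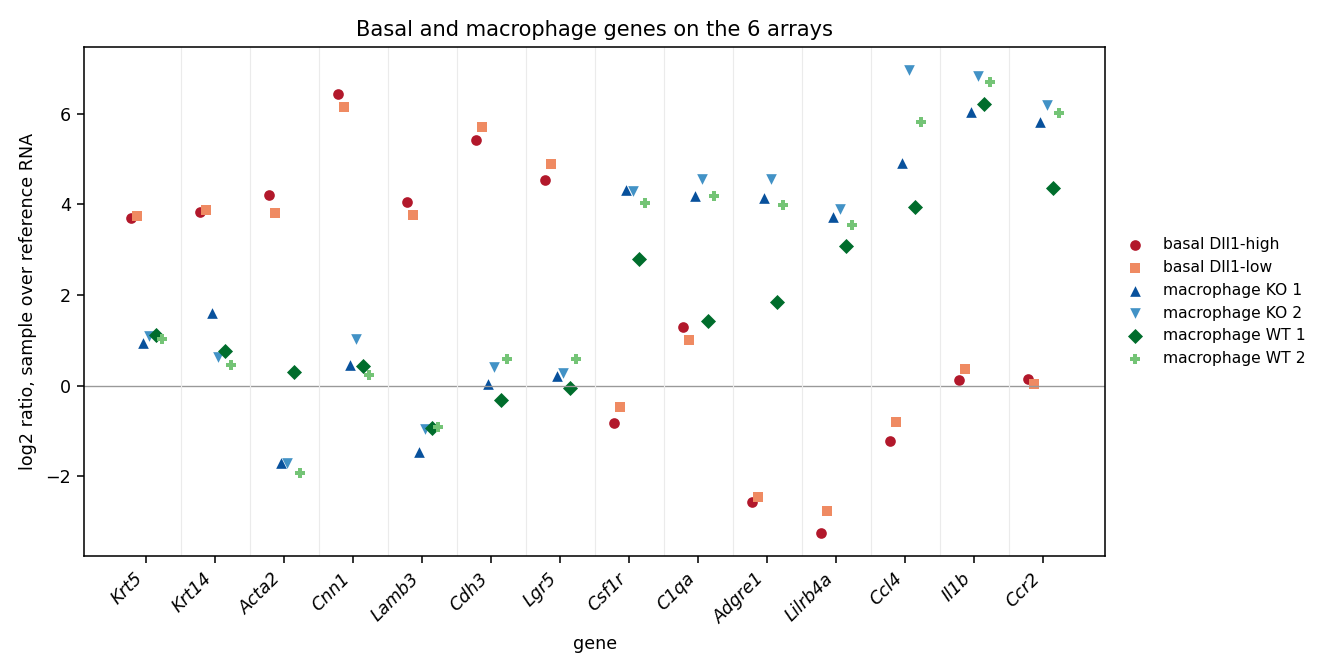
Log2 ratio over the reference RNA (y axis) of 14 genes (x axis) on the 6 arrays, 1 point per array, with the basal arrays in reds, KO macrophages in blues and WT macrophages in greens. The basal points lie above all macrophage points from Krt5 to Lgr5 and below them from Csf1r on, and WT replicate 1 lies apart for Acta2 (0.30) and C1qa (1.43).

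The gene furthest toward basal cells was Fhod3, a formin that assembles sarcomeric actin. It read 5.20 and 4.93 on the basal arrays and -1.95, -1.65, -2.25 and -1.39 on the macrophage arrays, a 117-fold difference (6.87, SE 0.27, adjusted p 6.61e-04). Actin and myosin partners filled most of the 12 largest basal differences: Actg2 (5.85), Cnn1 (5.76), Tagln (5.61), Acta1 (5.38), Acta2 (5.26) and Tpm2 (5.20). The rest were the desmosome gene Perp (5.71), the activin antagonist Fst (5.59), the cadherin Cdh3 (5.39), the keratin Krt23 (5.28) and Chadl (5.27), a gene of the small leucine-rich proteins. Acta1, the skeletal muscle actin with the CArG box shown above, read 3.78 and 3.25 against -2.26, -1.70, -1.50 and -1.98. Krt23 read 5.84 and 5.52 against 0.40, 0.55, 0.17 and 0.47. Arrays without overlap were a condition for choosing these 12, so their lack of overlap is not a result. For Chadl, at 4.96 and 4.74 against -0.93, -0.40, -0.24 and -0.10, another probe differed by -0.27, so its direction is uncertain. Of these 12, Fst (highest adjusted p 0.0559) and Tpm2 (0.0506) lost the call without the Dll1-high array and Acta2 (0.112) without either basal array.

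The gene furthest toward macrophages was Samsn1, an adaptor of blood cells whose upstream stretch is shown above. It read -2.09 and -1.58 in the basal cells and 5.19, 5.41, 4.54 and 5.58 in the macrophages, a 129-fold difference (-7.02, SE 0.34, adjusted p 6.91e-04). Myo1g, a myosin of blood cell membranes, read -1.67 and -1.50 against 4.95, 5.02, 5.05 and 4.99, the narrowest spread of these genes over the macrophage arrays (difference -6.59). Next came the immune receptor genes Sirpb1b (-6.57; -3.29 for a second probe), Lilrb4a (-6.56) and Cd300c2 (-6.25), the fungal glucan receptor Clec7a (-6.46), the chemokine Ccl4 (-6.42), the protease Adam8 (-6.42), and Plek (-6.35), a substrate of protein kinase C. Rgs1 (-6.34), which damps chemokine receptor signals, the lipid-sensing receptor Gpr132 (-6.24) and the cytokine Il1b (-6.20) closed the 12. Plek read -3.05 and -2.61 against 3.92, 4.09, 2.35 and 3.71, and Gpr132 -0.79 and -0.58 against 5.63, 6.06, 5.17 and 5.35. Here too, arrays without overlap were a condition for choosing the 12. Sirpb1b, Lilrb4a and Cd300c2 belong to families of near-identical genes, so the member that the probe reads is uncertain. Ccl4 and Sirpb1b lost the call without either basal array and Cd300c2 without the Dll1-high array.

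Of 7 basal keratins tested, 5 were called higher in basal cells and none in macrophages (median difference 2.68, against -0.04 over all genes). Krt17 read 5.01 and 4.95 against 0.72, 1.84, 0.47 and 0.95 (3.98, SE 0.39, adjusted p 0.00367). Krt15, a keratin of epithelial progenitors, read 4.24 and 4.10 against -0.53, -0.03, -0.61 and -0.33 (4.54, SE 0.21, adjusted p 6.61e-04). In these genes the basal arrays stood far above a narrow band of macrophage arrays. The reference channel itself was brighter for keratins on the basal slide. For Krt5 the Cy3 signal, relative to each array's centre, was 4.73 and 4.52 on the basal arrays and 0.67 to 0.79 on the macrophage arrays, so that the Cy5 difference alone was 6.55 against 2.68 for the ratio. The Cy3 shift was 3.32 for Krt14, 3.28 for Krt17 and 2.18 for Krt15, and in Cy5 alone these differed by 6.47, 6.87 and 6.42. The list median in Cy5 alone was 6.03. The count of 5 was 2 without either basal array, 4 or 5 without 1 macrophage array, 3 against the first macrophage row and 6 against the second. Krt17 (highest adjusted p 0.0641) and Krt14 lost the call without a basal array.

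Contractile genes had the largest median difference of the lists on the basal side: 14 of 18 were called higher in basal cells, none in macrophages, with a median of 3.63 and no overlap of the arrays for 16. Over all genes 4.20% were called higher in basal cells, and 15.9% had both basal arrays above all macrophage arrays. Of the 14 called, 2 passed the filter on dim probes through the basal arrays alone and could enter only if high there. Actg2, the enteric smooth muscle actin, read 4.63 and 3.78 in the basal cells and -2.20, -1.50, -1.22 and -1.65 in the macrophages (5.85, SE 0.36, adjusted p 9.88e-04). Cnn1, the actin-binding calponin, read 6.45 and 6.15 against 0.45, 1.03, 0.43 and 0.23 (5.76, SE 0.26, adjusted p 6.61e-04). Tagln, another actin-bundling protein, read 5.02 and 3.86 against -0.79, -1.56, -0.51 and -1.83 (5.61, SE 0.50, adjusted p 0.00275). Tagln had the widest gap between the basal fractions, with Dll1-high cells higher. Tpm2, a tropomyosin, read 4.20 and 3.64 against -1.53, -1.64, -0.30 and -1.64 (5.20, SE 0.45, adjusted p 0.00246), and its other probe differed by 4.86. The reference was 1.85 brighter for Cnn1 on the basal slide, where Cy5 alone gave a difference of 7.99. The count was 7 without the Dll1-high array, 9 without the Dll1-low array and 13 to 16 without 1 macrophage array. It was 10 against the first macrophage row and 17 against the second.

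Attachment to the basement membrane was the next group, with 15 of 21 hemidesmosome, integrin and laminin genes called higher in basal cells, none in macrophages, and a median of 2.30. Lamb3, a chain of laminin-332, the ligand of hemidesmosomes, read 4.05 and 3.77 against -1.46, -0.95, -0.93 and -0.92 (4.97, SE 0.22, adjusted p 6.61e-04). Col17a1, the transmembrane collagen of hemidesmosomes, read 6.21 and 6.04 against 1.10, 1.66, -0.05 and 1.62 (5.04, SE 0.51, adjusted p 0.00406). On both probes the lowest basal array was over 3 log2 units above the highest macrophage array. Lama1, a laminin chain of early basement membranes, read 5.13 and 4.87 against 0.15, 0.19, 0.29 and 0.38. It was not well above background on any macrophage array and was at least 26.8-fold higher in basal cells (adjusted p 6.61e-04). Bounds of this kind are the smaller of 2 values. One is the fold between the mean log2 ratios, and the other sets the normalized Cy5 signal of the brighter cells against, on each array of the dimmer ones, the higher of the probe's own signal and the lowest signal well above background. They are open to dye bias. Nid1 and Nid2, which link laminin to collagen, had differences of the other sign (-0.27 and -1.20) and were not called. The count of 15 was 3 without the Dll1-high array, 4 without the Dll1-low array, 12, 9, 16 and 7 without KO replicates 1 and 2 and WT replicates 1 and 2, and 5 and 17 against the first and second macrophage rows. Col17a1 lost the call without a basal array (highest adjusted p 0.0706).

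Cell to cell junctions were split. Of 23 epithelial junction genes 8 were called, all higher in basal cells, but the list median was 0.36. Perp read 4.17 and 3.70 in the basal cells and -1.85, -1.85, -1.47 and -1.93 in the macrophages (5.71, SE 0.22, adjusted p 6.61e-04). Cdh3, the P-cadherin of basal epithelium, read 5.42 and 5.72 against 0.03, 0.41, -0.31 and 0.60 (5.39, SE 0.29, adjusted p 7.73e-04). The desmosomal genes Dsp and Pkp1 followed. Dsp read 4.55 and 4.39 against -0.36, 0.23, -0.21 and -0.09 (4.58; 1.31 for a second probe), and Pkp1 3.57 and 3.35 against 0.12, 0.16, -0.50 and 0.22 (3.46, SE 0.25, adjusted p 0.00157). Pkp2, another desmosomal gene, lay the other way without overlap, at -3.24 and -3.09 against -2.96, -2.46, -1.65 and -2.87. It was not called (-0.68, adjusted p 0.411). The count was 4 without the Dll1-high array and 6 to 8 without any other, and 6 and 10 against the first and second macrophage rows.

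Among matrix genes the collagens leaned the same way: 6 of 14 were called, all higher in basal cells (median 1.82). Col7a1, the anchoring fibril collagen, read 4.49 and 4.05 against -1.23, -0.80, -0.15 and -1.09 (5.08, SE 0.34, adjusted p 0.00125). Col16a1 read 2.48 and 2.65 against -2.36, -3.24, -1.03 and -3.0 (4.97, SE 0.63, adjusted p 0.00819; 0.96 for another probe). The basement membrane collagens Col4a1 (3.14, adjusted p 0.00827) and Col18a1 (3.25, adjusted p 0.00742) were also higher in basal cells, with no overlap. Of 18 matrix proteases 2 were called in basal cells, Adamts1 (1.87, adjusted p 0.0426) and Mmp14 (1.45, adjusted p 0.0267), and 1 in macrophages, Adam8, a leukocyte metalloproteinase that read -3.29 and -3.10 against 3.63, 3.34, 2.45 and 3.47 (-6.42, SE 0.35, adjusted p 8.14e-04). The protease list median was 0.31, and over all genes 4.20% were called in basal cells and 5.0% in macrophages. The collagen count was 1 without either basal array, 6 to 8 without 1 macrophage array, 3 against the first macrophage row and 9 against the second. Without a basal array Col16a1, Col4a1 and Col18a1 lost the call. Adamts1 (highest adjusted p 0.318) lost it also without KO replicate 1, KO replicate 2 or WT replicate 2, and Mmp14 (0.238) without KO replicate 1 or WT replicate 2.

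Of 29 transcription factors listed for basal cells 11 were called higher there and 3 in macrophages (median 0.54). Id4, an inhibitor of helix-loop-helix factors, read 5.68 and 5.40 against 1.00, 0.87, -0.26 and 1.29 (4.81, SE 0.45, adjusted p 0.00311). Irx4 read 4.00 and 3.62 against 0.12, -0.26, -0.28 and -0.02 (3.92, SE 0.20, adjusted p 7.55e-04), and Klf5, a factor of epithelial proliferation, 2.75 and 2.27 against -1.45, -1.25, -1.27 and -1.52 (3.88, SE 0.20, adjusted p 7.55e-04). Snai2 (Slug), a regulator of mammary stem cells, read 0.97 and 0.85 against -2.95, -2.75, -1.89 and -2.60 (3.46, SE 0.31, adjusted p 0.00288). These arrays did not overlap. Trp63, the p63 gene and a defining factor of the basal layer, was chosen for mention after its values were seen, since its probes part ways. The brightest probe read 0.47 and 0.77 against 1.51, 0.11, 3.23 and 0.31 (-0.67, adjusted p 0.785), while a second had means of 5.90 in basal cells and -0.35 in macrophages, a difference of 6.26. The mean of its probes was called higher in basal cells (1.53, adjusted p 0.014). Ehf (-2.19, adjusted p 0.0257; -0.26 for another probe), Lef1 (-1.60, adjusted p 0.0421) and Mrtfa (-1.69, adjusted p 0.00254; -0.80 for another probe) were higher in macrophages. The counts in basal cells and macrophages were 3 and 1 without the Dll1-high array, 5 and 0 without the Dll1-low array, 11 and 3, 9 and 1, 12 and 5, and 9 and 2 without KO replicates 1 and 2 and WT replicates 1 and 2. Id4 and Snai2 lost the call without the Dll1-high array, Mrtfa (0.0505) without the Dll1-low array, Ehf (highest adjusted p 0.222) also without KO replicate 2, and Lef1 (0.289) also without either replicate 2.

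Among 20 surface and secreted genes of basal cells, 7 were called, all higher there (median 1.95). Both basal arrays lay above all 4 macrophage arrays for 13 members and below them for 2, Procr and Inhba. Procr read -0.899 and -0.219 in the basal cells and 0.744 to 2.56 in the macrophages, and narrowly missed the threshold (-2.24, adjusted p 0.054). Inhba was not called either (-0.63, adjusted p 0.586). Fst read 4.52 and 4.20 against -2.32, -0.85, -0.54 and -1.22 (5.59, SE 0.50, adjusted p 0.00281). Serpinb5 (maspin), a myoepithelial serpin, read 5.90 and 5.93 against 0.92, 1.51, 0.21 and 0.90 (5.03, SE 0.35, adjusted p 0.00141), with the reference 1.3 brighter on the basal slide. Lgr5, an R-spondin receptor that marks stem cells of several epithelia, read 4.54 and 4.90 against 0.22, 0.27, -0.06 and 0.59 and was at least 22.1-fold higher in basal cells, since it was not well above background on any macrophage array (adjusted p 7.55e-04). The Dll1-low fraction read higher for Lgr5, and the Dll1-high fraction for Fst. The count was 5 without either basal array, 11 without WT replicate 1 and 6 or 7 without the other macrophage arrays.

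Of 20 pan-macrophage genes 12 were called higher in macrophages and none in basal cells (median -3.54), and of 22 leukocyte genes 15 and none (median -3.35). The pan-macrophage genes Mertk (0.16, adjusted p 0.944) and Cd300a (0.09, adjusted p 0.985) had overlapping arrays and did not separate the cell types. Lyz1, a lysozyme that shares sequence with Lyz2, read -0.58 and 0.35 in the basal cells and 6.25, 6.55, 4.83 and 6.24 in the macrophages (-6.08, SE 0.55, adjusted p 0.0028). Ctss, a cathepsin of antigen processing, read -2.49 and -2.02 against 4.90, 3.15 and 4.71 on the 3 macrophage arrays with a value, KO replicate 1 having none (-6.51, SE 0.60, adjusted p 0.00582). Aif1 read -0.82 and -0.43 against 3.89, 4.95, 3.49 and 4.60 (-4.86, SE 0.44, adjusted p 0.0029). WT replicate 1 was the lowest macrophage array for all 3, as for Csf1r and Adgre1. Among leukocyte genes Selplg, the P-selectin ligand, read -1.53 and -1.44 against 4.02, 3.67, 3.69 and 3.54 (-5.21, SE 0.18, adjusted p 6.61e-04; -1.65 for a second probe). Vav1, an exchange factor of blood cells, read -3.39 and -3.52 against 1.83, 1.85, 0.70 and 1.56 (-4.94, SE 0.36, adjusted p 0.0016). Evi2a (-5.81, adjusted p 0.00354), Nckap1l (-4.91, adjusted p 0.00125) and Ptprc, the gene of CD45 (-3.79, adjusted p 0.017), were on the same side. Itgam, the gene of CD11b, was chosen after its values were seen: it read 2.71 and 3.10 in the basal cells and 4.15, 1.25, 5.42 and 1.14 in the macrophages (-0.08, adjusted p 0.988), with the macrophage arrays of the first slide row above and those of the second below the basal ones. The pan-macrophage count was 4 without the Dll1-high array, 6 without the Dll1-low array and 11 to 15 without 1 macrophage array, and the leukocyte count was 11 to 19 over the 6. Lyz1 and Aif1 lost the call without the Dll1-high array, Ctss and Evi2a without either basal array, and Ptprc (highest adjusted p 0.165) also without either replicate 2.

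Scavenger receptor and resident macrophage genes were more uneven, with 6 of 24 called, all higher in macrophages (median -2.51). Both basal arrays lay above all 4 macrophage arrays for 2 members and below them for 15, against 15.9% and 19.2% of all genes. F13a1, the coagulation factor chain of resident macrophages, read -0.77 and -0.33 against 4.63, 5.65, 3.41 and 5.60 (-5.37, SE 0.67, adjusted p 0.0079; -0.49 for another probe). Pf4, a chemokine of platelets and macrophages, read -3.43 and -3.12 against 0.27, 1.26, -0.21 and 0.66 (-3.77, SE 0.41, adjusted p 0.0052). Retnla, a marker of alternative activation, read 2.66 and 3.0 against 6.17, 5.71, 6.46 and 6.13 (-3.28, SE 0.25, adjusted p 0.00172). Here the basal cells too lay well above the reference RNA. The mannose receptor Mrc1, named after its values were seen, read 0.75 and 1.09 against 4.47, 5.95, 2.82 and 5.57 without overlap and missed the threshold (-3.78, SE 0.88, adjusted p 0.055). The hyaluronan receptor Lyve1, named likewise, read 0.64 and 2.00 against 0.11, 6.70, 2.75 and 7.20, high only on the second row of the slide. The count of 6 was 1 without either basal array, 15 without WT replicate 1 and 4 to 7 without the other macrophage arrays. It was 5 against the first row and 20 against the second. Retnla kept the call with any array left out, F13a1 (highest adjusted p 0.11) and Pf4 lost it without either basal array, and Stab1 (-3.02, adjusted p 0.0364, highest 0.281) also without either replicate 2.

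**Figure D3:**
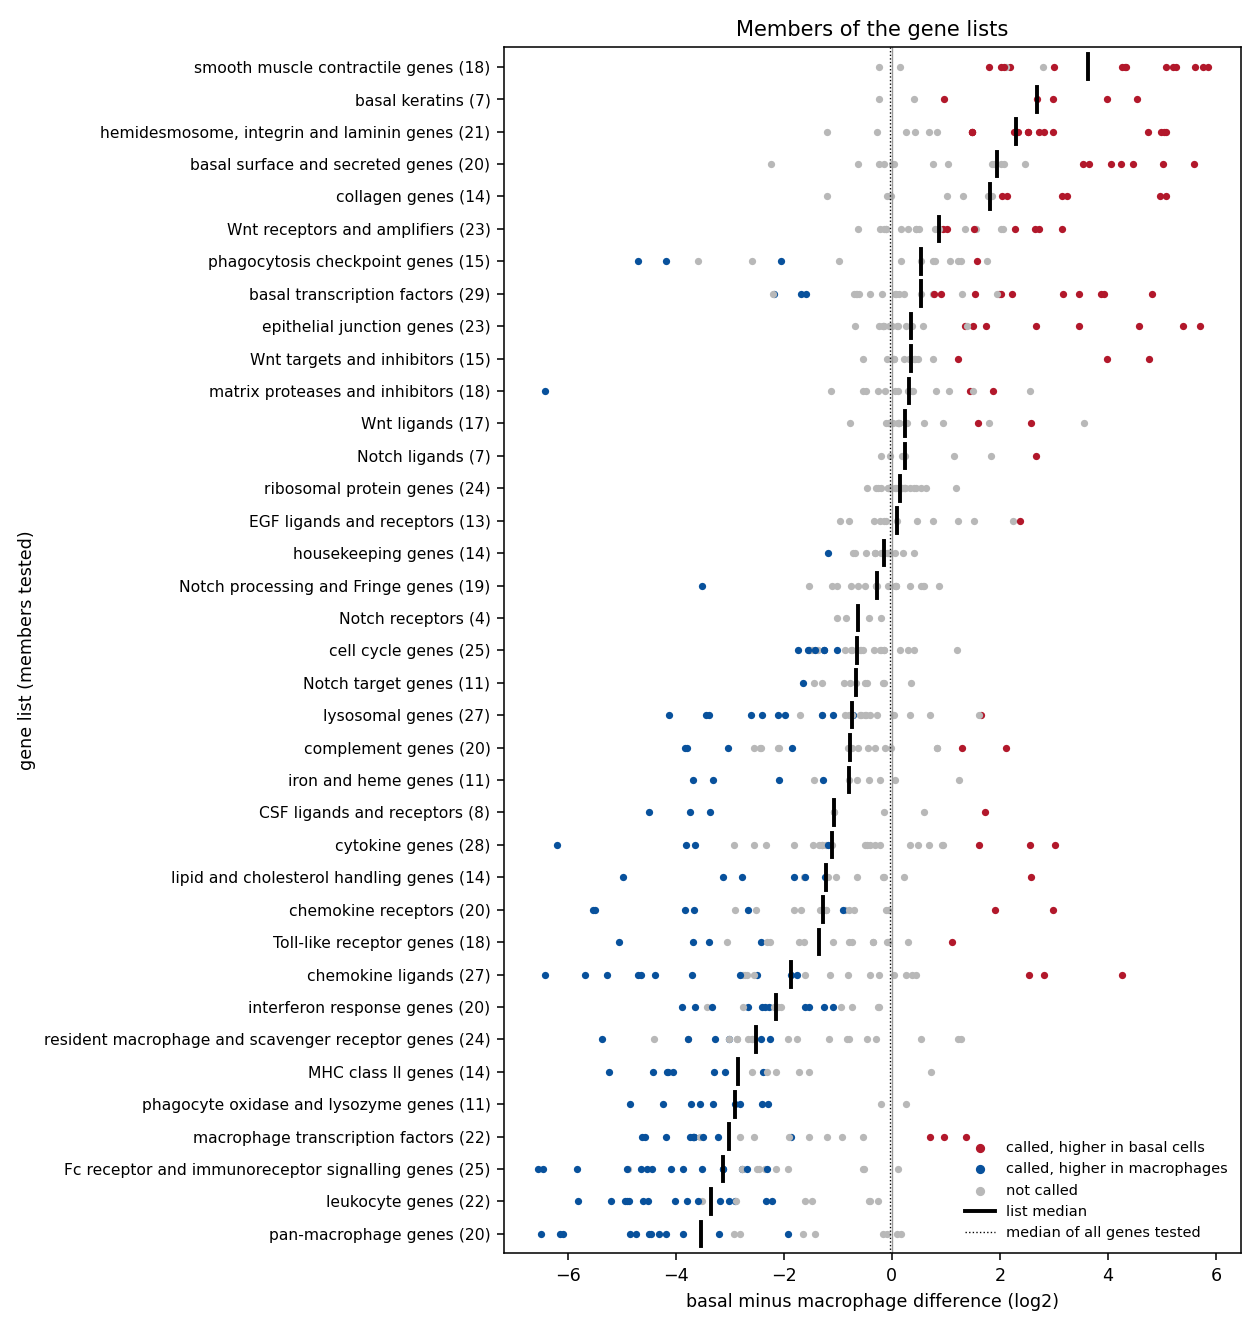
Basal minus macrophage difference (x axis, log2) of the members of the gene lists (y axis, with the members tested), without the lists of other cell types. Each point is 1 gene, red or blue where called. Bars are list medians and the dotted line the median of all genes (-0.04). Contractile genes (median 3.63) lie at one end and pan-macrophage genes (-3.54) at the other.

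Receptors that carry or read immunoreceptor signals were called in 15 of 25 cases, all higher in macrophages (median -3.13), and the arrays did not overlap for 23. Over all genes these shares were 5.0% and 19.2%. Lilrb4a read -3.25 and -2.76 against 3.71, 3.90, 3.08 and 3.55 (-6.56, SE 0.28, adjusted p 6.61e-04; -2.43 for a second probe). Clec7a (dectin-1) read -1.93 and -1.89 against 4.71, 5.26, 3.31 and 4.91 (-6.46, SE 0.54, adjusted p 0.00234). The adaptor Tyrobp, named after its values were seen, read -1.81 and -1.86 against 0.43, 4.43, 3.24 and 4.10 and missed the threshold (-4.89, SE 1.13, adjusted p 0.054). The count was 9 without either basal array and 14 to 19 without 1 macrophage array. Clec4d (-4.91, adjusted p 0.00477) lost the call without either basal array.

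Antigen presentation followed with 8 of 14 MHC class II genes called, all higher in macrophages (median -2.85). Cd86, a costimulator of T cells, read -0.94 and -0.89 against 4.03, 4.96, 3.38 and 4.94 (-5.25, SE 0.49, adjusted p 0.00317), and Cd40 read -0.49 and -0.26 against 3.36, 3.94, 3.69 and 4.06 (-4.14, SE 0.24, adjusted p 9.04e-04). Cd74, the invariant chain, read 0.27 and 0.54 against 4.61, 5.09, 5.35 and 4.28 (-4.43, SE 0.33, adjusted p 0.00171). H2-Aa read 1.00 and 1.07 against 6.10, 5.68, 3.47 and 5.58 (-4.17, adjusted p 0.0241), and its reference signal was 1.3 dimmer on the basal slide. H2 genes are near-identical between loci, so reads of single members are uncertain. The transactivator Ciita did not follow: it read 3.35 and 3.77 against 4.52, 1.13, 4.57 and 1.09 (0.73, adjusted p 0.845), split by slide row. The count was 4 without either basal array and 6, 5, 12 and 6 without KO replicates 1 and 2 and WT replicates 1 and 2. Cd86 lost the call without a basal array, and H2-Aa (highest adjusted p 0.208) also without KO replicate 1 or either replicate 2.

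Among sensors of microbes 4 of 18 Toll-like receptor genes were called higher in macrophages and 1 in basal cells (median -1.36). Ly86 (MD-1) read -0.66 and -0.52 against 4.83, 4.60, 4.22 and 4.23 (-5.06, SE 0.23, adjusted p 6.61e-04), and the RNA sensor Tlr13 -0.07 and 0.31 against 3.78, 4.18, 3.39 and 3.83 (-3.68, SE 0.26, adjusted p 0.00137). Unc93b1, which ferries these receptors to endosomes, read -0.96 and -0.84 against 2.73, 2.83, 2.05 and 2.32 (-3.38, adjusted p 0.00186). The shared adaptor Myd88 lay the other way, at 2.03 and 1.94 in the basal cells and 0.55, 0.96, 1.07 and 0.88 in the macrophages (1.12, adjusted p 0.0214). Cd14 of the pan-macrophage list, the co-receptor of Tlr4, read -1.92 and -1.60 against 2.09, 3.16, 2.18 and 2.79 (-4.32, SE 0.35, adjusted p 0.00211). The counts in macrophages were 10 without WT replicate 1 and 3 or 4 without any other array. Myd88 (highest adjusted p 0.216) lost the call without a basal array or either replicate 2, and Tlr2 (-2.42, adjusted p 0.0482, highest 0.3) without any array but WT replicate 1.

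Of 22 macrophage transcription factors 11 were called higher in macrophages and 3 in basal cells (median -3.01). Irf8, needed for monocyte and dendritic cell fates, read -0.46 and -0.31 against 3.74, 3.82, 3.59 and 4.03 (-4.18, SE 0.18, adjusted p 6.61e-04). Lyl1 read -2.04 and -1.74 against 2.69, 3.05, 1.94 and 3.04 (-4.57, SE 0.35, adjusted p 0.00189), and Zeb2 -2.45 and -1.98 against 1.83, 2.21, 0.52 and 1.56 (-3.74, adjusted p 0.00855; -0.88 and 0.01 for other probes). Runx3 (-4.62, adjusted p 0.0195) and Runx1 lay apart: Runx1 was higher in basal cells, at 2.12 and 1.87 against 0.43, 1.06, 0.20 and 0.77 (1.38, adjusted p 0.0348; 1.84 for a second probe). Another probe of Runx3 differed by 0.19. Spi1, the gene of PU.1 named after its values were seen, read -0.34 and -0.33 against 0.73, 0.23, -0.37 and 0.20 (-0.53, adjusted p 0.401), well above background on 1 of the 4 macrophage arrays. The macrophage count was 4 without either basal array, 17 without WT replicate 1 and 9 without any other. Zeb2 lost the call without a basal array, Runx3 (highest adjusted p 0.193) also without KO replicate 1 or either replicate 2, and Runx1 (0.295) also without KO replicate 1 or WT replicate 2.

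Effector genes of phagocytes were called in 9 of 11 oxidase and lysozyme genes, all higher in macrophages (median -2.91). Ncf4, a cytosolic subunit of the NADPH oxidase, read -3.18 and -3.10 against 1.20, 1.39, 0.67 and 1.15 (-4.24, SE 0.23, adjusted p 7.76e-04). Ncf1 (-3.72, adjusted p 0.00503) and the chitinase-like Chil3 (-3.56, adjusted p 0.00739) were on the same side. The count was 3 without either basal array and 7 to 9 without 1 macrophage array. Ncf1 and Chil3 lost the call without a basal array.

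Lysosomal genes were called in 10 of 27 cases in macrophages and 1 in basal cells (median -0.75). Ctsh, a cathepsin, read 2.75 and 2.84 against 6.27, 6.45, 5.81 and 6.21 (-3.39, SE 0.21, adjusted p 0.00103), above the reference in both cell types. Ctsc (-4.14, adjusted p 0.0174; -1.19 for a second probe), Lgmn (-3.45, adjusted p 0.00249) and Hexa (-2.61, adjusted p 0.00189) were also higher in macrophages, while Ctsf was higher in basal cells, at 1.97 and 1.76 against -0.18, 0.43, 0.18 and 0.39 (1.66, adjusted p 0.00987). Of 14 lipid genes 6 were called in macrophages and 1 in basal cells (median -1.21). Abcg1, which exports cholesterol, read -1.78 and -1.82 against 3.12, 3.49, 2.57 and 3.57 (-4.99, SE 0.31, adjusted p 0.00102). The lipid receptor Trem2 read -3.16 and -3.10 against -0.79, 0.57, -0.29 and -0.95 (-2.77, adjusted p 0.0174), and Apoc2 differed by -3.14 (adjusted p 0.0157). Apoc1 went the other way, at 3.74 and 3.30 against 0.36, 1.23, 0.70 and 1.46 (2.58, adjusted p 0.0105), and Apoe was high in both, at 5.31 and 5.19 against 5.34, 5.77, 5.35 and 5.21 (-0.16, adjusted p 0.754). Iron and heme genes were called in 4 of 11 cases, all in macrophages (median -0.80): the heme oxygenase Hmox1 (-3.69, adjusted p 0.0323; -0.69 for another probe), the metal transporter Slc11a1 (-3.31, adjusted p 0.00794) and the ferritin chains Ftl1 (-2.10, adjusted p 0.00756, without a value on KO replicate 2 and with near copies in the genome) and Fth1 (-1.28, adjusted p 0.0294). The 3 macrophage counts were 3, 1 and 0 without the Dll1-high array, 5, 1 and 0 without the Dll1-low array, 5, 4 and 2 once KO replicate 2 was left out, 13, 8 and 7 without WT replicate 1, and 7, 5 and 2 without WT replicate 2. Ctsh, Hexa and Abcg1 kept their calls with any array left out. Lgmn lost it without the Dll1-high array, and Ctsf, Trem2, Apoc1, Slc11a1 and Ftl1 without a basal array. Ctsc (highest adjusted p 0.176) and Apoc2 (0.155) lost it also without KO replicate 2, and Hmox1 (0.252) and Fth1 (0.276) without either replicate 2.

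Chemokines were split between the cell types by identity. Of 27 ligands 11 were called higher in macrophages and 3 in basal cells (median -1.86). Of the 11, 1 passed the filter on dim probes through macrophage arrays alone. Ccl4 read -1.22 and -0.80 in the basal cells and 4.91, 6.96, 3.95 and 5.82 in the macrophages (-6.42, SE 0.81, adjusted p 0.00822), and Ccl3 -2.96 and -2.74 against 2.74, 3.82, 1.83 and 2.98 (-5.69, SE 0.53, adjusted p 0.00311). Both draw in myeloid cells and T cells. Ccl9 read -1.92 and -1.44 against 2.88, 3.15, 3.06 and 2.96 (-4.69, SE 0.19, adjusted p 6.61e-04), and the neutrophil attractant Cxcl2 0.42 and 0.60 against 5.92, 6.42, 4.25 and 6.58 (-5.28, SE 0.67, adjusted p 0.00834). The basal side held Cxcl14, at 4.78 and 4.87 against 0.49, 1.38, -0.27 and 0.69 (4.25, SE 0.44, adjusted p 0.00429), whose reference signal was 3.51 brighter on the basal slide (7.54 in Cy5 alone). It also held the membrane-bound chemokine Cx3cl1, at 2.06 and 2.01 against -1.06, -0.81, -0.56 and -0.67 (2.81, SE 0.18, adjusted p 0.0012). Its receptor Cx3cr1, named after its values were seen, lay on the other side, at 0.33 and 0.42 against 4.61, 5.63, 3.66 and 5.41 (-4.46, SE 0.57, adjusted p 0.00834; -1.04 and -4.66 for other probes). The macrophage count was 3 without the Dll1-high array, 5 without the Dll1-low array and 10 to 16 without 1 macrophage array, and the basal count was 1 without either basal array. Ccl9 and Cx3cl1 kept their calls, Ccl3 lost it without the Dll1-high array, and Ccl4, Cxcl2, Cxcl14 and Cx3cr1 (highest adjusted p 0.11) without either basal array.

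Of 20 chemokine receptors 6 were called in macrophages and 2 in basal cells (median -1.28). Ccr7, which guides cells to lymph nodes, read 2.01 and 2.12 against 7.64, 7.29, 8.15 and 7.35 (-5.54, SE 0.28, adjusted p 7.55e-04). Ccr2, the receptor of Ccl2 on monocytes, was not well above background in either basal fraction (0.14 and 0.04) and read 5.81, 6.19, 4.36 and 6.01 in the macrophages, at least 45.3-fold higher (adjusted p 0.00355). Cxcr4 read -0.39 and -0.31 against 3.21, 3.62, 3.04 and 3.42 (-3.67, SE 0.20, adjusted p 8.16e-04). Both receptors called in basal cells are decoys that take up chemokines without classical signalling: Ackr3, at 3.04 and 2.70 against -0.47, -0.18, 0.44 and -0.24 (2.98, adjusted p 0.00345), and Ackr4, at 3.68 and 2.85 against 0.98, 1.24, 1.19 and 1.98 (1.91, adjusted p 0.03). The macrophage count was 2 without either basal array, 4 without either KO array, 13 without WT replicate 1 and 3 without WT replicate 2. Ackr3 lost the call without the Dll1-high array and Ccr2 without either basal array. Ackr4 (highest adjusted p 0.259) lost it also without either KO array, and Ccrl2 (-3.84, adjusted p 0.03, highest 0.249) also without KO replicate 1 or either replicate 2.

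Cytokine and growth factor genes were called in 4 of 28 cases in macrophages and 3 in basal cells (median -1.12), against 5.0% and 4.20% of all genes. Il1b read 0.13 and 0.37 in the basal cells and 6.03, 6.84, 6.21 and 6.70 in the macrophages (-6.20, SE 0.28, adjusted p 6.61e-04), with the reference 1.30 dimmer on the basal slide. Il18 (-3.65, adjusted p 0.0106) and the prostaglandin synthase Ptgs2 (-3.81, adjusted p 0.0183) were on the same side, and Tnf, named after its values were seen, missed the threshold with -0.16 and 0.08 against 2.80, 3.70, 0.60 and 2.95 (-2.55, adjusted p 0.138). Platelet-derived growth factors were on the basal side. Pdgfa read 1.66 and 1.58 against -1.08, -0.82, -0.98 and -0.87 (2.56, SE 0.15, adjusted p 9.04e-04; 2.50 for a second probe), and Pdgfc 1.85 and 1.80 against -0.02, -1.21, -2.04 and -1.53 (3.03, adjusted p 0.0253). The macrophage and basal counts were 1 and 1 without either basal array, 4 and 3 without KO replicate 1, 2 and 2 without KO replicate 2 or WT replicate 2, and 14 and 7 without WT replicate 1. Il1b and Pdgfa kept their calls, Il18 lost it without a basal array, and Ptgs2 (highest adjusted p 0.178) and Pdgfc (0.213) also without either replicate 2.

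The colony-stimulating factor genes showed both sides of the axis on which macrophages depend. Il34, a ligand of Csf1r, was called higher in basal cells, at 1.21 and 0.52 against -1.28, -0.99, -0.31 and -0.88 (1.73, SE 0.33, adjusted p 0.0313). Csf1, the other ligand, read -0.02 and -0.35 against -1.78, -0.83, -0.54 and 0.03 (0.60, adjusted p 0.601), and its other probes gave -0.75 and -0.73, so no direction can be given. Csf3, a granulocyte factor, overlapped, at 1.46 and 0.76 against 1.07, 1.46, 0.71 and 1.78 (-0.14, adjusted p 0.907). On the receptor side Csf1r, Csf2rb and Csf2rb2 were called higher in macrophages, which made 3 of 8 tested, with 1 in basal cells (median -1.07). Csf2rb, the shared chain of the GM-CSF, IL-3 and IL-5 receptors, read -0.62 and -0.23 against 3.35, 3.73, 2.65 and 3.51 (-3.73, SE 0.33, adjusted p 0.00265; -0.10 for another probe), and its near-identical copy Csf2rb2 -0.10 and 0.20 against 3.24, 3.81, 2.58 and 4.07 (-3.37, adjusted p 0.00881). Csf2ra read 2.64 and 2.77 against 4.46, 0.52, 5.93 and 4.20 (-1.07, adjusted p 0.785) and Csf3r -0.13 and 0.47 against 1.45, 0.45, 2.94 and 0.15 (-1.08, adjusted p 0.55), both with overlap. The overlap of Csf2ra came from KO replicate 2 alone, where its probe was dim in both channels. Relative to each array's centre, Cy5 was -0.42 and Cy3 -1.16 there, against 5.30 to 7.74 and 1.77 to 3.95 on the other macrophage arrays. No call of the list was left without the Dll1-high array and 1, for a receptor, without the Dll1-low array. Il34 (highest adjusted p 0.276) lost its call without any array but WT replicate 1.

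Of 7 Notch ligands 1 was called (median difference 0.24), where 9.20% of all genes were called in either direction. Jag2 was called higher in basal cells, at 3.29 and 3.08 against -0.20, 1.10, 0.03 and 1.10 (2.68, SE 0.45, adjusted p 0.0202). Dll1, on which the basal cells were sorted and the knockout was made, read 3.94 and 3.26 against 0.80, 2.25, 0.78 and 3.24 (1.83, SE 0.77, adjusted p 0.242; 0.31 for a second probe). The Dll1-low basal cells and WT replicate 2 read nearly the same, and KO replicate 2 read above WT replicate 1. The probe thus does not separate the genotype labels, and the labels do not say whether it lies in a deleted exon or which cells lose the gene. Jag1 read 2.45 and 2.34 against 0.81, 1.72, 0.85 and 1.63 (1.14, adjusted p 0.0983), also without overlap. Dll4 (0.65 and 1.08 against 1.13, 0.18, 0.67 and 0.70), Dll3 (difference -0.03), Dlk1 (-0.20) and Dlk2 (0.24; -0.22 for another probe) overlapped, and none was called. None of the 4 receptors was called (median -0.64): Notch1 read -0.43 and -0.20 against 0.02, 1.17, 0.15 and 0.81 (-0.85, adjusted p 0.249), Notch2 -0.57 and -0.50 against 0.41, 1.03, -0.26 and 0.74 (-1.02, adjusted p 0.177), Notch3 differed by -0.42 and Notch4 by -0.20. Jag2 lost its call without either basal array (highest adjusted p 0.198), and against the second macrophage row alone 3 ligands and 2 receptors were called.

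Downstream of the receptors 1 of 11 Notch target genes and 1 of 19 processing and Fringe genes were called, both higher in macrophages (medians -0.67 and -0.27), where 5.0% of all genes were called. Dtx2, a ubiquitin ligase of the pathway, read -0.45 and -0.66 against 0.86, 1.40, 0.83 and 1.29 (-1.65, SE 0.23, adjusted p 0.0107; -0.33 for another probe). Mfng, a glycosyltransferase that tunes the response of Notch to its ligands, read -1.50 and -1.49 against 2.40, 1.01 and 2.64 on the 3 macrophage arrays with a value (-3.51, adjusted p 0.023; -1.86 for another probe). Hes1, a direct target named after its values were seen, read -0.25 and -0.31 against 0.04, 0.93, -0.42 and 1.01 (-0.67, adjusted p 0.492). Both calls were lost without a basal array, and that of Mfng (highest adjusted p 0.203) also without either replicate 2.

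**Figure D4:**
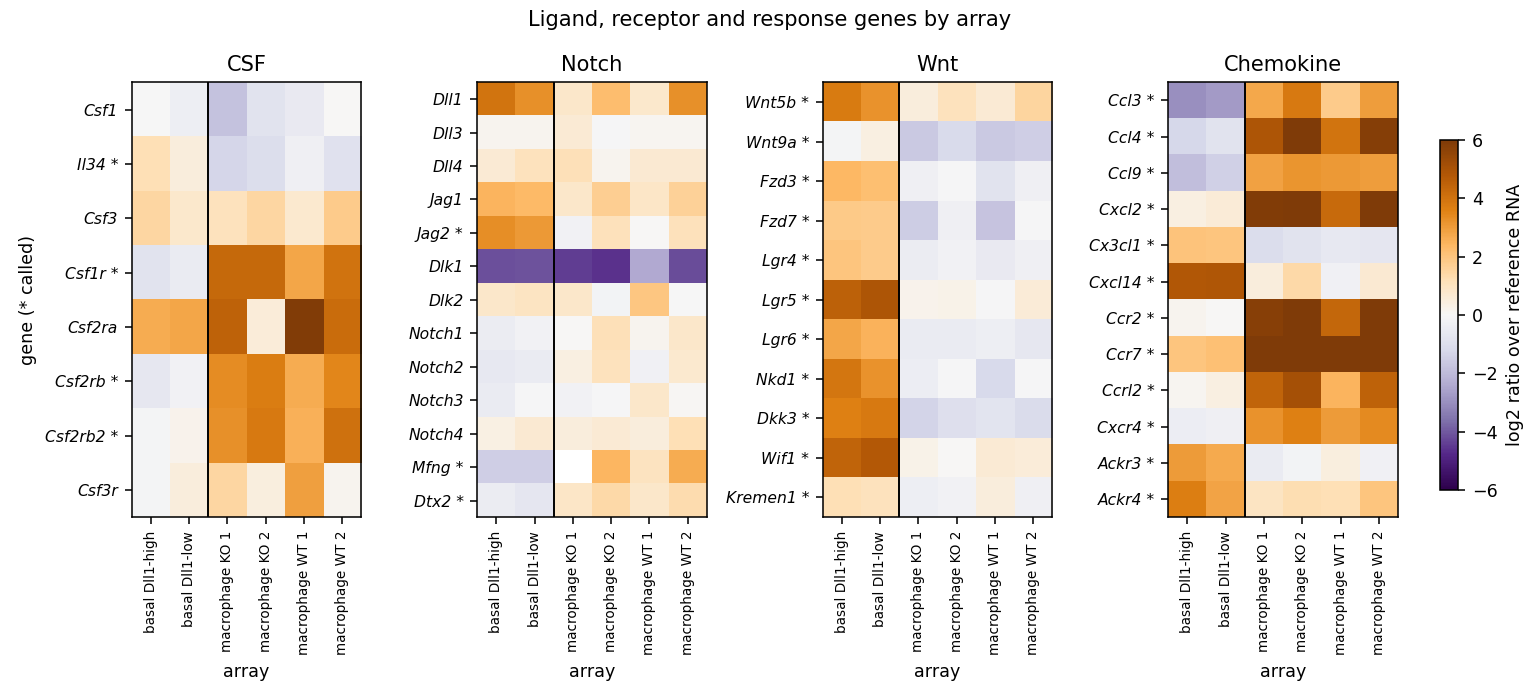
Log2 ratio over the reference RNA (colour, from -6 in purple to 6 in orange, values beyond at the end colours) of ligand, receptor and response genes (rows, * where called) on the 6 arrays (columns); the white cell is Mfng on KO replicate 1, which has no value. Csf1r and Ccr2 are high on the macrophage arrays only, and Lgr5, Lgr6 and Cxcl14 on the basal arrays, while Dll1 is high on both basal arrays and WT replicate 2, at 2.25 on KO replicate 2 and lower on both replicates 1.

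In the 3 Wnt lists the called genes were all higher in basal cells, while Lef1, a Wnt transcription factor listed above, was called in macrophages. They were 2 of 17 ligands, 7 of 23 receptors and amplifiers and 3 of 15 targets and inhibitors (medians 0.24, 0.87 and 0.34), against 4.20% of all genes. Among ligands Wnt5b read 3.77 and 3.20 against 0.47, 1.04, 0.62 and 1.54 (2.57, adjusted p 0.0107) and Wnt9a -0.13 and 0.41 against -1.62, -1.15, -1.60 and -1.48 (1.60, adjusted p 0.0122). All 3 R-spondin receptors were called, Lgr5 as above, but Lgr4, Lgr5 and Fzd3 passed the filter on dim probes through the basal arrays alone. Lgr6 read 2.81 and 2.49 against -0.48, -0.50, -0.37 and -0.65 (3.15, SE 0.17, adjusted p 7.55e-04; 0.47 for another probe), and Lgr4 2.00 and 1.81 against -0.44, -0.23, -0.53 and -0.28, at least 3.42-fold higher (adjusted p 0.00144). Of the frizzled receptors, Fzd3 was at least 6.26-fold higher, at 2.35 and 2.18 against -0.31, -0.07, -0.83 and -0.31 (adjusted p 0.00288), and Fzd7, known in mammary stem cells, read 1.83 and 1.79 against -1.52, -0.31, -1.76 and -0.05 (2.72, adjusted p 0.0352; 0.38 for another probe). Genes that restrain the pathway were also high. Dkk3 read 3.62 and 3.80 against -1.34, -0.96, -0.79 and -1.11 (4.76, SE 0.20, adjusted p 6.61e-04), the secreted inhibitor Wif1 4.42 and 4.77 against 0.24, 0.03, 0.63 and 0.54 (4.24, SE 0.23, adjusted p 7.87e-04), and the feedback gene Nkd1 3.92 and 3.19 against -0.39, -0.05, -1.20 and -0.06 (3.98, adjusted p 0.00402; 1.07 for a second probe). The 3 counts were 0, 2 and 1 without the Dll1-high array, 0, 3 and 2 without the Dll1-low array, and 7, 10 and 5 without WT replicate 1. Without 1 of the other macrophage arrays they were 2, 5 or 6, and 2. Lgr4, Lgr5, Lgr6, Dkk3 and Wif1 kept their calls. Fzd3 and Nkd1 lost it without the Dll1-high array, Wnt5b and Wnt9a without a basal array, Fzd7 (highest adjusted p 0.26) also without either KO array, and Kremen1 (1.23, adjusted p 0.0493, highest 0.344; 0.27 for a second probe) without any array but WT replicate 1.

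Among EGF family genes 1 of 13 was called, where 4.20% of all genes were, the receptor Egfr, higher in basal cells at 1.42 and 1.23 against -1.48, -0.95, -0.36 and -1.44 (2.38, adjusted p 0.0133; 1.31 and 0.77 for other probes), and the list median was 0.10. It lost the call without a basal array. Genes of phagocytosis and its checks were called on both sides, 3 of 15 in macrophages and 1 in basal cells (median 0.54). Sirpa, the phagocyte receptor of Cd47, read -0.96 and -0.90 against 3.19, 3.69, 2.55 and 3.58 (-4.18, SE 0.34, adjusted p 0.00219). Cd47 itself was also higher in macrophages, at -1.37 and -1.28 against 1.41, 0.88, -0.15 and 0.83 (-2.06, adjusted p 0.0371; -2.47 and -0.31 for other probes). Mfge8, a milk fat globule protein that bridges dying cells to phagocytes, was higher in basal cells, at 2.24 and 2.18 against 0.46, 0.32, 0.67 and 1.07 (1.58, adjusted p 0.0142). Sirpa kept its call, Mfge8 lost it without a basal array, Cd47 (highest adjusted p 0.277) without any array but WT replicate 1, and Havcr2 (-4.70, adjusted p 0.0217, highest 0.198) without a basal array or either replicate 2.

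Complement genes were also divided, with 4 of 20 called in macrophages and 2 in basal cells (median -0.77), against 5.0% and 4.20% of all genes. C1qc read 1.74 and 1.80 against 4.57, 5.46, 4.14 and 5.07 (-3.04, SE 0.38, adjusted p 0.00769), and its partner C1qb, named after its values were seen, 0.75 and 0.49 against 2.52, 2.99, 2.20 and 2.16 (-1.84, SE 0.28, adjusted p 0.0142). The reference signal of C1qc was 1.8 dimmer on the basal slide. Properdin (Cfp), which stabilises the alternative pathway, read -0.36 and -0.16 against 3.22, 3.51, 3.70 and 3.66 (-3.79, SE 0.19, adjusted p 7.55e-04). Basal cells were higher for Cd59a, which guards cells from lysis (1.72 and 1.67 against -1.17, -0.23, -0.69 and 0.43; 2.11, adjusted p 0.0399), and for C1s1, the C1 protease (-0.13 and 0.15 against -1.17, -1.75, -0.90 and -1.35; 1.30, adjusted p 0.0366). Without either basal array 1 macrophage and no basal call was left, without WT replicate 1 there were 8 and 2, and without the other macrophage arrays 3 and 0 or 1. Cfp kept its call, C1qc (highest adjusted p 0.106) and C1qb (0.155) lost it without a basal array, Cd59a (0.285) also without KO replicate 2, and C1s1 (0.288) without any array but WT replicate 1.

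Markers of other cells that such sorts can hold were called too, in lists that are short. Over all genes 4.20% were called in basal cells and 5.0% in macrophages. The part of such cells in the results above was not tested. Of 23 luminal genes 2 were called in basal cells and 1 in macrophages (median 0.09). Gata3 read 1.64 and 1.65 against -0.40, -0.81, 0.00 and -0.68 (2.12, adjusted p 0.00698) and Pgr 2.95 and 2.68 against 1.01, 1.24, 0.25 and 0.84 (1.98, adjusted p 0.0143; 0.42 for another probe). The luminal keratins Krt8 (1.14 and 1.08 against -0.82, -1.19, 0.58 and -1.57) and Krt18 (-0.10 and 0.12 against -1.33, -1.51, 0.13 and -1.88), named after their values were seen, were not called, and WT replicate 1 was their highest macrophage array. Fibroblast genes had medians of -1.07 and -0.60 on the basal arrays, 0.24 on WT replicate 1 and -1.26 to -0.86 on the other macrophage arrays, with 1 of 18 called (Thy1, -1.38, adjusted p 0.0415, highest 0.331). Endothelial genes had a median difference of -1.38. They were above the reference on every array, with medians of 1.54 and 1.70 in basal cells and 2.01 to 3.93 in macrophages and 2 of 16 called in macrophages, Vwf (-1.64, adjusted p 0.0116) and Flt1 (-2.01, adjusted p 0.0289, highest 0.264; -0.29 for another probe). Of 12 adipocyte genes 3 were called in basal cells and 1 in macrophages (median -0.01), led by the glucose transporter Slc2a4, at 4.35 and 3.90 against 0.06, 0.33, -0.25 and 0.47 (3.98, SE 0.26, adjusted p 0.00119). Without either basal array no endothelial, fibroblast or basal luminal call was left, without KO replicate 1 there were 6 endothelial calls, and without WT replicate 1 there were 5 luminal and 4 fibroblast calls on the basal side. Thy1 lost its call without any array but WT replicate 1, Flt1 without a basal array or either replicate 2, and Gata3, Pgr and Vwf without a basal array.

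In the lists of other blood cells every call was on the macrophage side. Neutrophil genes were called there in 3 of 10 cases (median -1.44), dendritic cell genes in 5 of 10 (-1.47), eosinophil genes in 3 of 8 (-1.42), T cell genes in 3 of 12 (-1.23), B cell genes in 3 of 10 (-1.47), NK cell genes in 1 of 7 (-1.03) and mast cell genes in 0 of 6 (-1.89), against 5.0% of all genes. Of the 5 dendritic cell genes called, 1 passed the filter on dim probes through macrophage arrays alone. Erythroid genes were called in 0 of 6 (-0.05). The neutrophil gene S100a9 read 0.56 and 0.35 in the basal cells and 6.22, 5.98, 5.07 and 6.56 in the macrophages (-5.51, SE 0.42, adjusted p 0.00178), and S100a8 -2.90 and -2.74 against 3.32, 2.01, 0.14 and 3.84 (-5.15, adjusted p 0.0349). Ear2, an eosinophil ribonuclease with near-identical copies, read 0.30 and 0.22 against 5.51, 5.44, 6.16 and 5.47 (-5.39, adjusted p 6.61e-04). Dendritic cell genes included Flt3, at -0.03 and 0.04 against 3.33, 3.61, 3.09 and 3.75 (-3.44, adjusted p 0.00117; -0.52 and -0.05 for other probes), Cd209a (-3.64, adjusted p 0.00163; -1.55 for another probe), and Itgax, named after its values were seen, at -0.94 and -0.94 against 3.59, 4.02, 3.02 and 3.68 (-4.52, SE 0.29, adjusted p 0.0011). The levels of these lists differed among macrophage arrays, with median log2 ratios over members of 0.20 to 2.93 for neutrophil, 0.56 to 1.67 for B cell, 0.46 to 1.29 for T cell and 1.30 to 1.99 for dendritic cell genes. Irf8 and the MHC class II genes above are shared by macrophages and dendritic cells, and how far each cell type made up the sort was not tested. Without either basal array the counts were 1 for neutrophil, 2 for dendritic cell, 1 for eosinophil and 0 for T, B and NK cell genes. In the same order of lists they were 1, 4, 1, 3, 3 and 1 without KO replicate 1, 1, 4, 1, 1, 1 and 0 once KO replicate 2 was left out, 1, 4, 2, 1, 1 and 0 without WT replicate 2, and 6, 7, 6, 7, 7 and 6, with 4 mast cell genes, without WT replicate 1. S100a9, Ear2, Flt3, Cd209a and Itgax kept their calls with any array left out. S100a8 (highest adjusted p 0.261), Camp (-3.94, 0.284) and Ear1 (-3.75, 0.213) lost it without any array but WT replicate 1, Ms4a1 (-1.79, 0.246) and Cd79b (-2.64, 0.191) without a basal array or either replicate 2, and Cd3g (-2.58) without a basal array.

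Of 24 ribosomal protein genes none was called (median 0.14), and of 14 housekeeping genes 1 was, in macrophages (median -0.15), where 5.0% of all genes were called. Cell cycle genes were called in 7 of 25 cases, all in macrophages (median -0.65): Birc5 read -3.34 and -3.32 against -1.85, -1.85, -1.57 and -1.80 (-1.56, SE 0.15, adjusted p 0.00359), and the G1 cyclin Ccnd1 -1.52 and -1.26 against -0.08, 0.08, 0.35 and 0.20 (-1.53, adjusted p 0.00681). Except for Ccnd1 these genes lay below the reference, a mix of growing cell lines, in both cell types, and Mki67, named after its values were seen, was not called (-0.65, adjusted p 0.284). Interferon response genes were called in 11 of 20 cases, all in macrophages (median -2.15). Oas1a read -2.88 and -2.69 against 0.56, 1.81, 0.92 and 1.11 (-3.88, adjusted p 0.00293; -2.60 for a second probe), and Bst2 (-3.33, adjusted p 0.00512), Oasl1 (-3.65, adjusted p 0.0114) and Isg15 (-2.67, adjusted p 0.0436; -2.36 for a second probe) were on the same side. Without the Dll1-high array the cell cycle and interferon counts were 0 and 1, without the Dll1-low array 0 and 2, without KO replicate 2 or WT replicate 2 both 3 and 9, and 6 and 12 without KO replicate 1, and 9 and 15 without WT replicate 1. Oas1a lost its call without the Dll1-high array, Birc5, Ccnd1, Bst2 and Oasl1 without a basal array, and Isg15 (highest adjusted p 0.319), Aurkb (-1.74, 0.226) and E2f1 (-1.42, 0.216) also without either replicate 2.

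The labels name the same reference RNA for both slides, and whether its lot or labelling differed was not tested. The reference channel did not read the same on the 2 slides. Between the slides, its signal differed by at least 1 on the log2 scale for 1119 genes (3.62%) and for 132 of the 2873 called genes (4.59%). Of genes called and at least 4-fold apart without overlap, those higher in basal cells had a median shift of -0.18 and those higher in macrophages one of -0.39, against -0.19 over all genes. Because the median shift of all genes was negative, the next 2 shares are not to be set against an even split. The shift had the sign of the sample difference for 163 of the 449 basal genes (36.3%) and 572 of the 664 macrophage genes (86.1%). Among shifts of at least 1 it had that sign for 35 basal genes and the other sign for 6, and for 41 and 9 macrophage genes. A shift of that sign did not always leave the ratio's difference smaller than that of Cy5 alone, since loess was applied to the ratio and not to the single channels. For Krt5 the shift was 3.90, with 6.55 in Cy5 alone and 2.68 in the ratio. For Samsn1 it was -0.71, with -6.71 in Cy5 alone and -7.02 in the ratio. What moved the reference was not tested. The shifted genes were not spread evenly over roles, as the keratins and Cxcl14 (brighter on the basal slide) and C1qc, Cd209a (-1.99), Retnla (-1.90) and Itgax (-1.54; all dimmer there) show. With only genes shifted by less than 1 tested, 2769 were called. Within the basal slide 0.157% of genes were at least 2-fold apart in the reference channel, within the macrophage slide 0.65% to 6.3%, and between the slides 2.99% to 8.89%.

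**Figure D5:**
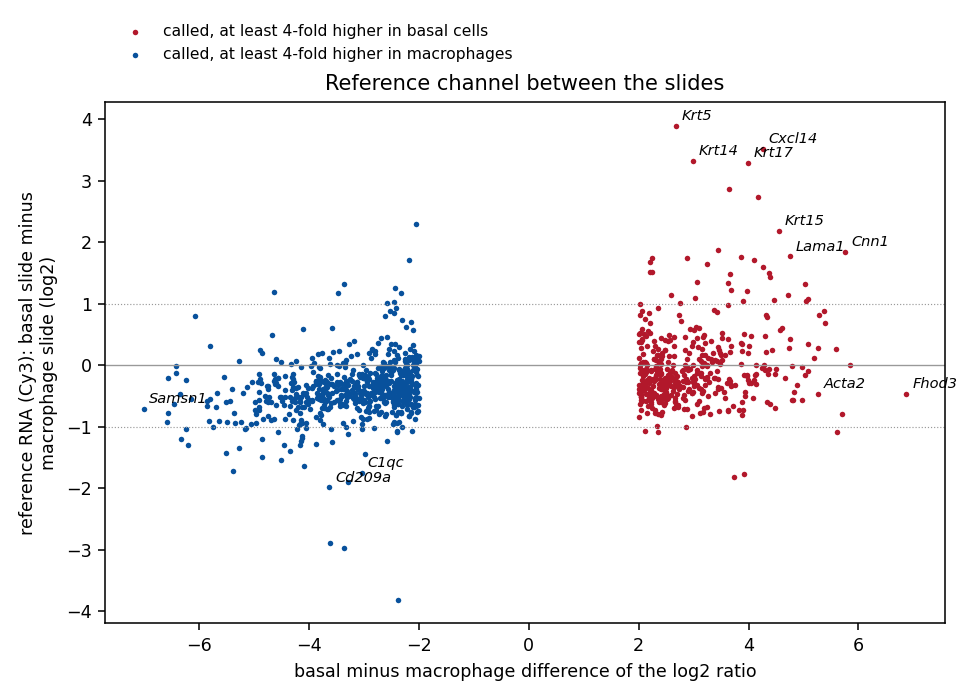
Shift of the reference RNA signal between the slides (y axis, log2, basal minus macrophage slide) against the difference of the log2 ratio (x axis) for genes called and at least 4-fold different, with dotted lines at shifts of 1 and -1. Krt5, Krt14, Krt17 and Cxcl14 stand at shifts above 3 on the basal side, while Acta2, Fhod3 and Samsn1 lie between the dotted lines.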

How the data were processed

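Expression was measured on 6 Agilent mouse arrays with 2 colours and no dye swap. Per the file headers, the deposited median signals of spots and of their local background are raw intensity values, and the scanner's log ratio is a log10 of sample over reference after its own background and dye correction. The log2 values that the authors deposited are ratios that followed the scanner's log ratios (r = 0.978 to 1 per array). The submitters' processing notes give Agilent Feature Extraction 11.0 for all arrays.

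Median signals were corrected with normexp (offset 50) and loess within each array, and spots marked by the scanner software (170 to 500 per array) were left out (version 1.17.8 of data.table, limma 3.58.1 and R 4.3.3). Of 55681 probes, 47727 passed the scanner's test for Cy5 above background on 2 or more of 6 arrays, and the brightest stood for its gene. Of the probes, 27509 were named through an accession and 28172 by the array design. The 2 basal and 4 macrophage arrays were fitted as 2 groups with lmFit and eBayes, with Benjamini-Hochberg adjustment over all genes at 0.05. Only the fit and the rule for arrays without overlap were run on simulated data, which were values drawn independently for each gene and array. Background correction, loess, the filter and the choice of probe were not simulated. The number of arrays limits the precision.

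The members and the 49 gene lists (814 genes, 1 not on the array and 18 not tested) were chosen with earlier results of these data known, and lists are given by counts and medians. The rule for named genes took the 12 largest differences in each direction that were called, without overlap and well above background on every array of the higher cell type. It added up to 4 called members of each list with up to 2 of opposite sign, the colony-stimulating factor and Notch ligand and receptor genes, and the 5 markers. Some genes that this rule took are not reported here. A replicate number shared by KO and WT was not treated as a pairing. Basal cells are 2 sorted fractions, so the fit takes their difference as spread. Alternatives covered the signal, background, normalization, filter, probe rule, fit and each array left out, and restricting the macrophages to 1 slide row was added after the data were seen.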

Additional observations from a re-analysis of the deposited data

Results flagged for a closer look

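The highest or lowest of the 4 macrophage arrays was compared with the other 3 for 199 genes and 49 list medians. In 14 of these 248 groups (5.65%) 1 array lay far from the rest relative to the range, about the share of 1 in 20 that chance gives, and 10 of the 14 were WT replicate 1. Among basal genes this array read high for Acta2 (0.297, others -1.92 to -1.70), Tpm2 (-0.299, others -1.64 to -1.53) and Kremen1 (0.48, others -0.356 to -0.233), and low for Pkp1 (-0.496, others 0.121 to 0.217). Among blood cell genes it read low for C1qa (1.43, others 4.18 to 4.55), Evi2a (1.13, others 2.79 to 3.03), Clec4d (-0.539, others 0.952 to 1.19), Kit (1.40, others 3.70 to 4.14) and Cd209a (3.81, others 4.50 to 4.60), and high for Ear2 (6.16, others 5.44 to 5.51). KO replicate 1 read low for Lamb3 (-1.46, others -0.95 to -0.916) and E2f1 (-1.51, others -0.877 to -0.776), and its list medians were high for B cell genes (1.67, others 0.56 to 0.724) and housekeeping genes (0.154, others -0.0832 to -0.0601).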

How the results depend on the processing

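The counts of called genes (1311 higher in basal cells, 1562 in macrophages) moved by over 1.5 times under these settings: the scanner's log ratios (720 and 710), the authors' table (690 and 715), limma's treat at a difference of 1 (259 and 378), 4 groups in place of 2 (43 and 49) and the replicate block (2184 and 2622). On one side they moved with Cy5 well above background on all 6 arrays (838 basal), median centring (79 macrophage), loess with scaling between arrays (818 macrophage) and Cy5 alone (827 macrophage). With 1 array left out they ranged over 159 to 2903 and 202 to 3669, against the first macrophage row they were 489 and 493 and against the second 8129 and 7030. The counts of genes without overlap (4931 and 5945) moved with median centring (7657 and 2430), all 6 arrays above background (2759 basal), the second row (12481 and 10866), the first row (9956 macrophage) and 1 array left out (5432 to 7905 and 6418 to 8036), where fewer arrays must be apart. No background correction, no filter, the mean of probes, a robust fit and the limit on the reference shift stayed within 1.5 times. The replicate number was used as a block although the labels do not say that it pairs the macrophage arrays: deviations of same-numbered KO and WT arrays correlated at 0.581 over genes in 2 pairs.

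Over all alternatives, the genes followed kept direction and side of the threshold 3463 times, lost the call 764 times, gained it 59 times and turned sign 39 times; list medians moved by more than their spread 172 times and did not 906 times. The cause was not tested. Among called genes only Runx3 turned, to 0.19 with all 6 arrays above background, where another probe stood for it. The uncalled genes turned as follows. Median centring gave 0.192 for Dll3, 0.557 for Dlk1, 0.378 for Notch3, 0.102 for Notch4, 0.0468 for Trp63, 0.781 for Itgam, 0.552 for Apoe and 0.0614 for Mki67. The scanner's log ratios and the authors' table each gave -0.696 for Dll4 and 0.087 for Dlk1, and scaling between arrays gave 0.646 for Dlk1. The mean of probes gave -0.295 for Csf1, 0.0064 for Dll3 and 1.53 for Trp63. Cy5 alone gave 1.03 for Itgam and 0.656 for Apoe. Against the first row the values were 0.222 for Csf3, -0.0376 for Dll4, -0.518 for Dlk2, 0.0112 for Notch4, -0.986 for Ciita and -0.549 for Polr2a. Against the second they were 0.346 for Csf2ra, 0.144 for Dll3, 0.289 for Dlk1, 0.406 for Trp63 and 1.71 for Itgam. With 1 array left out the values ranged from -0.497 to 0.209 for Csf3, -0.114 to 0.12 for Dll3, -0.0176 to 0.404 for Dll4, -0.439 to 0.297 for Dlk1, -0.0421 to 0.675 for Dlk2 and -0.703 to 0.725 for Itgam.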

Other observations

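For several genes the 2 macrophage arrays in the first slide row (replicates 1) read above those in the second (replicates 2), with the basal arrays between or beside them. Polr2a, the large subunit of RNA polymerase II, read 2.49 and 2.75 in the basal cells and 3.70, 1.10, 2.64 and 1.38 on KO replicates 1 and 2 and WT replicates 1 and 2. Ciita, Itgam and the brightest Trp63 probe read higher on both first-row arrays, and Lyve1 higher on both second-row arrays. These genes were chosen after their values were seen, and row and replicate number cannot be told apart.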
